A study of Mus musculus with 12 samples.

Results

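Intracisternal A-particle elements (IAPs) are mouse endogenous retroviruses. A full copy carries an internal part with the viral genes between a pair of long terminal repeats (LTRs), and many copies have lost the internal part and persist as a single LTR. The viral RNA starts within the first LTR and ends within the second, where a polyadenylation signal lies. In mouse embryonic and embryonal carcinoma cells, IAPs are repressed, though not fully silent, by DNA methylation and by a histone-methylating complex that KRAB zinc finger proteins and TRIM28 bring to them.

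IAP copies were taken from the table of direct RNA reads as the LTR-class contigs whose repeat name starts with IAP, and a read was counted where its poly(A) quality tag was PASS. In all, 555 IAP copies of 18 families had at least 1 such read, of 48149 transcripts and repeat copies with one. They carried 3356 PASS alignments from 3353 reads, which was 0.0718% of all 4673531 PASS alignments and 18.6% of those on LTR copies. The copies lay on 21 chromosomes.

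The reads came from P19 cells, a wild-type mouse embryonal carcinoma line, sequenced as native RNA on nanopores. Cells were undifferentiated at D0 and were collected at D2, D4 and D6 of neuronal differentiation with retinoic acid, with 3 biological replicates per day and 12 libraries in all. All replicates are cultures of this 1 line. The 13 sequencing runs each held 1 day, so that day and run cannot be told apart.

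Depth ranged from 131602 to 648902 PASS alignments per library, of which 67 to 535 were IAP reads on 50 to 187 copies. The undifferentiated markers (Pou5f1, Utf1, Tdgf1 and others) summed to 1496 to 1680 reads per 1000000 PASS alignments of the library (RPM) at D0 and to at most 2.60 RPM at D6. Pou5f1 made up most of this sum, with 1391 to 1583 RPM at D0, and 2 of the 6 markers (Dppa5a and Zfp42) were at 0 throughout. The 6 neuronal markers summed to 402 to 435 RPM at D0 and to 1994 to 2270 RPM at D6, where all 6 were higher. At D2 they summed to 114 to 204 RPM, with 2 lower. The 4 neural progenitor markers summed to 114 to 143 RPM at D0 and to 317 to 441 RPM at D6, where all 4 were higher. The 11 markers of other cells, 5 of them at 0 throughout, summed to 36.2 to 50.3 RPM at D0 and to 29.3 to 38.8 RPM at D6. In the run names, D2 stands beside a word for undifferentiated cells in all 3 runs of the D0 libraries, and some runs of D6 have no day, so that the labels alone set the groups.

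Most IAP reads could not be placed on a single copy with confidence. The aligner's mapping quality (MAPQ) was 0 for 38.1% of IAP reads and at least 10 for 3.13%, against 17.2% and 66.5% of all other PASS alignments. That left 105 IAP reads of MAPQ 10 or more, 1 to 14 per library. The count of a family is therefore firmer than the count of a copy, and a copy stands below for itself and any near-identical ones.

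Reads were taken up from the poly(A) tail, so that the 3′ end of an alignment lies next to the tail. The windows that follow are shown because they hold a hexamer known from polyadenylation signals ahead of that end, and such a match is a description. They come from LTR copies that lie in non-coding exons of GENCODE vM21 transcripts on GRCm38, the build mm10 of the reads. Each is written in the direction that holds a hexamer within 40 bases before the read end, with the hexamer in capitals.
IAPLTR1_Mm_dup784: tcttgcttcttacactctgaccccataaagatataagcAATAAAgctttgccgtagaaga
IAPLTR2b_dup322: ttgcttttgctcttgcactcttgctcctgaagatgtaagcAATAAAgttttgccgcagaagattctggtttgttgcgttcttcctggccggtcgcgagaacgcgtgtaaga
IAPEY4_LTR_dup85: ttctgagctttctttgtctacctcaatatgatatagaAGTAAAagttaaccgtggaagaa
IAPEY4_LTR_dup86: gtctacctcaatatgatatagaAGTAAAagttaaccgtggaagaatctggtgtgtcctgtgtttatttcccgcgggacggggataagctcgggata

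The first window is the 60 bases up to the read end of a copy in the lincRNA Gm29562 (chr9:88828366-88828425, plus strand), where the read stopped at position 300 of 351 and the hexamer ended 16 bases before it. The second, from Gm42577 (chr5:74988079-74988189, plus strand), runs to the end of the LTR, and there the read stopped at position 296 of 347, 14 bases after the hexamer. The third, in Gm49708 (chr16:90341595-90341654, minus strand), had its most frequent read end 17 bases after the hexamer, with 4 of 4 reads within 5 bases of it. An identical window lay in IAPEY4_LTR_dup90 (chr19:9828899-9828958, minus strand), with 6 of 6 reads within 5 bases of the same end. The fourth (chr16:90349547-90349642, minus strand) belongs to the same transcript as the third and had 4 reads within 5 bases of an end that lay 16 bases after the hexamer.

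Of 11 copies whose end region could be read in such exons, 6 held a hexamer, AATAAA in 2, AGTAAA in 3 and ATTAAA in 1, searched on both strands where the exon allowed it. In IAPLTR4_dup494, the copy with ATTAAA, the hexamer ended 1 base before the read end. All 5 copies that could be read in both directions held a hexamer in 1 direction only. The 5 copies without one could each be read in only 1 direction, so that whether they lack a hexamer is not known. Among 40-base windows of 32851 mouse promoters (RefSeq, GRCm38.p6), 7.84% held any of the hexamers on either strand. These copies carried 1 to 6 reads each, and the sequences of the copies with the most reads were not analysed here.

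Read ends were also clustered within each family. IAPLTR1_Mm, an LTR of young, active IAPs, held 2805 reads on 263 copies (median copy length 351 bases). In it, 91.5% of alignments started within the first 5 bases of the LTR, and the median read stopped 54 bases before the LTR's last base. The distance to the end was 45 to 60 bases in 67.6% of its reads. IAPLTR1a_Mm stopped at a median of 53 bases, IAPLTR2_Mm at 52, IAPLTR2b at 51 and IAPEY4_LTR at 51, where 98.0% of the reads lay between 45 and 60 bases. ERVB7_1-LTR_MM and RLTRETN_Mm, LTRs of other retroviral families with many reads here, stopped further in, at medians of 112 and 116 bases.

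**Figure D1:**
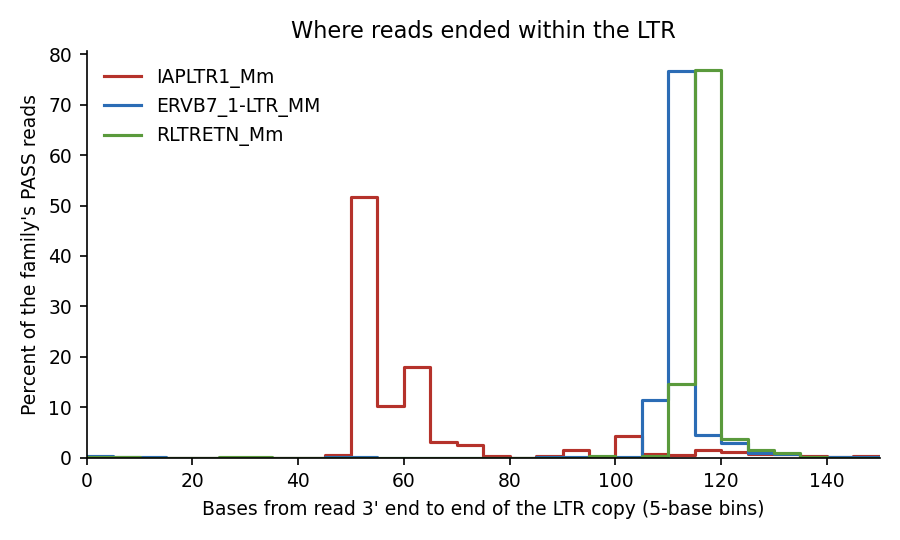
Percent of each family's PASS reads (y axis) against the number of bases between the read's 3′ end and the end of its LTR copy (x axis, bins of 5 bases), for IAPLTR1_Mm, ERVB7_1-LTR_MM and RLTRETN_Mm. IAPLTR1_Mm reads peak at 50 to 55 bases (51.8%), with a second peak at 60 to 65 bases (18.0%), and the other families peak beyond 105 bases.

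IAPLTR2_Mm differed in where its reads began. Only 34.9% of its 152 reads started within the first 5 bases, and 85 reads (55.9%) on 42 copies started between positions 200 and 260 of the LTR. Of these 85, 97.6% had a single alignment and 0 had a second alignment on an internal part. Of the 53 reads that started at the LTR's edge, 26 had one.

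The first comparison asked whether IAP RNA changed in abundance as the cells differentiated. IAP reads were 576, 550.2 and 598 RPM in the D0 libraries and 509, 697 and 487 RPM at D2. They were 572, 631 and 758 RPM at D4 and 937, 1118 and 1050 RPM at D6. All D6 libraries lay above all D0 libraries, whereas the D2 and D4 ranges overlapped with D0. The log2 difference from D0 was 0.85 ± 0.082 (SE) at D6, a 1.80-fold level, with p = 0.10 by the two-sided exact permutation test (adjusted p = 0.30). With 3 libraries against 3, 0.10 is the smallest p that this test allows. The difference was 0.18 ± 0.124 at D4 (exact permutation p = 0.30, adjusted 0.45) and -0.04 ± 0.166 at D2 (exact permutation p = 0.90, adjusted 0.90). The 3 comparisons share the D0 libraries. In a bulk sample, more cells with IAP RNA and more IAP RNA per cell cannot be told apart.

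The runs of a day gave like values, from 496 to 617 RPM in the 3 runs of D0 and from 1020 to 1233 RPM in the 4 runs of D6. No run held more than 1 day, so no comparison could be made within a run.

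**Figure D2:**
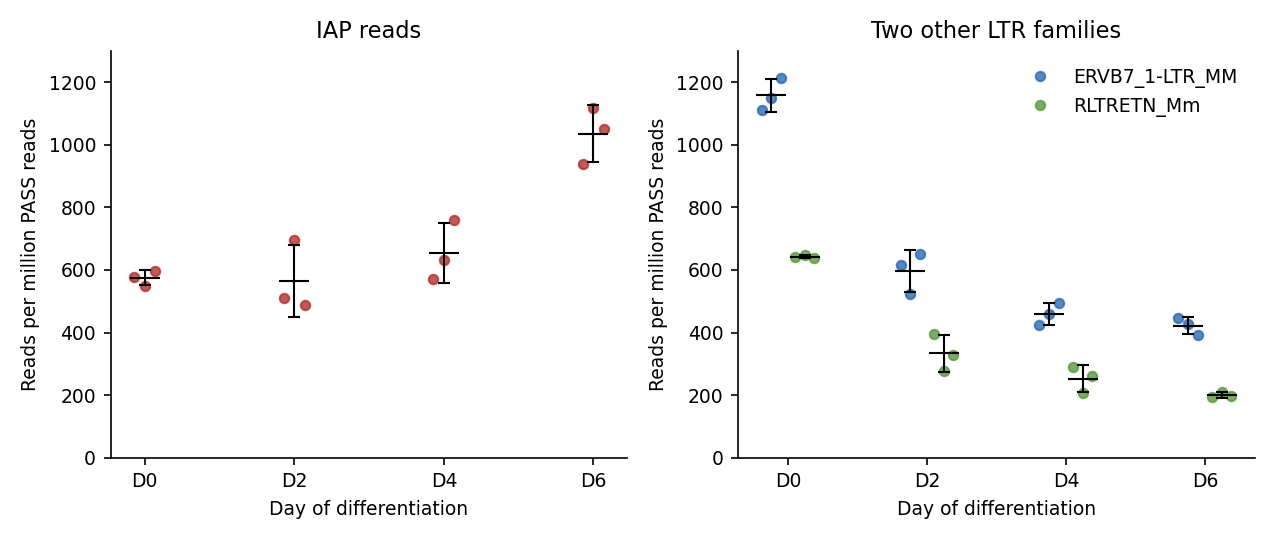
Reads in RPM (y axis) by day (x axis) for all IAP copies (left) and for the ERVB7_1-LTR_MM and RLTRETN_Mm families (right). Points are libraries, wide bars means and error bars SD (n = 3 per day). The IAP points of D6 (937 to 1118 RPM) lie above those of D0 (550.2 to 598 RPM), and both other families are lower on each later day than at D0.

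IAP RNA took a growing part of the LTR reads. IAP copies held 13.7 to 14.03% of LTR reads in the D0 libraries, 14.3 to 20.3% at D2, 18.5 to 21.2% at D4 and 23.3 to 24.5% at D6, and no later library overlapped with D0. The log2 ratio of IAP to other LTR reads differed from D0 by 0.27 ± 0.196 (SE) at D2, 0.65 ± 0.080 at D4 and 0.97 ± 0.033 at D6 (exact permutation p = 0.10 for each, the smallest possible, adjusted p = 0.10). The other LTR families moved too. ERVB7_1-LTR_MM fell from 1110 to 1213 RPM at D0 to 392 to 446 RPM at D6 (log2 fold change -1.62, limma-voom adjusted p = 6.03e-18). RLTRETN_Mm, the LTR of the ETn early transposons, fell from 637 to 647 RPM to 194 to 211 RPM (log2 fold change -1.83, limma-voom adjusted p = 3.34e-16). Without both families, the log2 ratio differed from D0 by -0.17 at D2, 0.11 at D4 and 0.27 at D6 (exact permutation p = 0.40, 0.40 and 0.10), so that the D2 direction turned.

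Only 1 IAP family passed the test at D6. Reads were tallied per family and gene name and fitted over all 12 libraries with limma-voom, and 6 IAP families had the 30 reads required. The other 12 families held 59 reads together and were not tested. Of the 6, 1 was called higher and 0 lower at D6, 0 were called at D4 and 0 at D2 (limma-voom, Benjamini-Hochberg adjusted p of at most 0.05, while 2, 1 and 2 passed an unadjusted 0.05 at D6, D4 and D2). Of all 9514 families and genes tested, 37.3% were called at D6 (18.8% higher), 25.0% at D4 and 10.4% at D2, so that the IAP counts lay no higher than the background. The median log2 fold change at D6 was 0.42 over the 6 families and 0.01 over all rows. These fits scale libraries by the trimmed mean of M-values, whereas RPM are scaled to library totals, with which the median of all rows shifted to 0.18 at D6, 0.06 at D4 and 0.10 at D2.

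IAPLTR1_Mm stood at 478, 452 and 485 RPM in the D0 libraries, 441, 582 and 422 RPM at D2, 451, 509 and 626 RPM at D4, and 805, 978 and 883 RPM at D6. All D6 values lay above the others. It rose 1.69-fold at D6 (log2 fold change 0.76 ± 0.110 SE, limma-voom adjusted p = 1.79e-07), and its log2 fold changes were -0.09 at D2 and 0.12 at D4 (adjusted p = 0.735 and 0.492 in the same limma fit). Reads with a single alignment, 30.9% of IAP reads, gave this family a log2 fold change of 0.20 at D6 (limma-voom adjusted p = 0.408). This filter also takes out every LTR read with a second alignment on an internal part, so that it does not change read placement alone.

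IAPLTR2_Mm, with 152 reads on 81 copies, had 27.2, 26.2 and 19.9 RPM at D0 and 45.2, 37.6 and 59.8 RPM at D6, without overlap. Its log2 fold change of 0.74 ± 0.304 just missed the threshold (limma-voom adjusted p = 0.0502) and passed it with library totals as the only scaling (adjusted p = 0.0149), with upper quartile scaling (0.0463) and without mitochondrial transcripts, pseudogenes and spike-ins (0.0402). It also passed without any 1 of the D2 libraries or D4 replicate 2 or 3 (limma-voom adjusted p = 0.0421 to 0.0472) and without D6 replicate 2 (log2 fold change 1.02, limma-voom adjusted p = 0.0144). In the other alternatives where it could be tested it was not called. Without 1 library at a time, the log2 fold change of IAPLTR2_Mm ran from 0.56 to 1.02. IAPLTR1a_Mm (148 reads) had 34.1 ± 3.64 RPM at D0 and 40.5 ± 2.90 RPM at D6 (SD, n = 3, log2 fold change 0.11, limma-voom adjusted p = 0.809), and its log2 fold change turned to -0.65 with single-alignment reads. At D2 it had 15.2, 19.3 and 14.9 RPM against 33.5, 30.8 and 38.0 RPM at D0, without overlap (log2 fold change -0.99 ± 0.466, limma-voom adjusted p = 0.182). IAPLTR2b (98 reads) had 21.8 ± 4.34 and 22.5 ± 3.59 RPM (log2 fold change -0.10, limma-voom adjusted p = 0.855), and its sign turned with library totals alone.

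IAPEY4_LTR, the LTR of another IAP lineage, had its highest means at D2 and D4. With only 49 reads on 26 copies, it averaged 6.19 RPM at D0, 13.96 RPM at D2, 16.2 RPM at D4 and 5.81 RPM at D6. The D4 libraries (10.7, 16.7 and 21.3 RPM) lay above the D0 libraries (2.09, 9.25 and 7.24 RPM). The log2 fold change at D4 was 1.38 ± 0.554 (limma-voom adjusted p = 0.0608). Outside D4 the family had 28 reads, so that it entered the test only through the 21 reads of D4. Its D4 values are therefore a description. IAPEz-int, the internal part of the IAPEz elements, had only 45 PASS reads. It had 4.19, 4.62 and 5.43 RPM at D0 and 15.2, 15.4 and 14.9 RPM at D2, from 8 and 9 reads, without overlap (log2 fold change 1.51 ± 0.621, limma-voom adjusted p = 0.116). Its log2 fold change at D6 was 0.99 ± 0.575 (limma-voom adjusted p = 0.174), and without D6 replicate 2 it passed the threshold (1.63, limma-voom adjusted p = 0.0285).

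Since PASS left out most internal alignments, internal parts were also counted with every quality tag, an alternative added after the data were seen. IAP copies then had 9856 alignments, 5182 of them on IAPEz-int, of which 81.8% carried the tag SUFFCLIP for reads clipped at their 3′ end. IAPEz-int had 451 to 651 alignments per 1000000 of any tag (APM) in the D0 libraries and 596 to 772 in those of D2, and reached 903 to 1015 at D4 and 1248 to 1281 by D6. The family rose 1.65-fold at D4 (log2 fold change 0.73 ± 0.110, limma-voom adjusted p = 1.29e-06) and 2.03-fold at D6 (1.02 ± 0.108, limma-voom adjusted p = 2.20e-10). The D4 and D6 libraries did not overlap with those of D0.

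With every tag, 9 IAP families were tested, of which 3 were higher at D4 and 4 at D6, 0 were lower at either day, and 0 were called at D2 (2 at an unadjusted p under 0.05, limma-voom). A read aligned to both an LTR and an internal part counts in both families here. The calls of LTR and internal families can therefore share reads and are not independent. Of all 10296 rows of this fit, 28.9% were called at D4, 40.9% at D6 and 11.5% at D2, and 14.2% were higher at D4 and 21.1% at D6. IAPLTR2_Mm, with 528 alignments, rose 2.35-fold at D4 and 2.92-fold at D6 (limma-voom adjusted p = 1.03e-05 and 4.46e-08). IAPLTR1_Mm again rose at D6 (log2 fold change 0.78, limma-voom adjusted p = 4.05e-08), as did IAP-d-int (74 alignments, 2.02, adjusted p = 0.00181). IAPEY4_I-int, the internal part that belongs to the IAPEY4 lineage, was higher at D4 (77 alignments, log2 fold change 1.39, limma-voom adjusted p = 0.0333).

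The second comparison asked how far IAP RNA reached from the LTR into the body of the element. Of 3306 PASS reads on an IAP LTR, 2126 (64.3%) had a second alignment on an IAP internal part, so that 1 molecule was reported as 2 pieces. The share per library was 44.1, 62.7 and 56.6% at D0 (95% Wilson intervals 38.3 to 50.1, 57.6 to 67.6 and 51.2 to 61.8%), which cover counting error only. It was 72.3, 55.4 and 60% at D2, 72.1, 73.7 and 68.3% at D4 and 74.0, 64.5 and 68.8% at D6. All D4 and D6 libraries lay above the D0 libraries (exact permutation p = 0.10 for each, the smallest possible), and D2 overlapped with D0 (exact permutation p = 0.50).

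LTR reads with an internal piece made up most of the added reads of D6. They stood at 251, 342 and 335 RPM at D0 and at 682, 715 and 709 RPM at D6, 2.27 times the D0 mean. The D4 libraries (394 to 513 RPM) also lay above D0, 1.47 times the mean (exact permutation p = 0.10 at each day, the smallest possible). LTR pieces alone had 260 ± 57.5 RPM at D0 and 318 ± 77.0 RPM at D6 (SD, n = 3), which overlapped (exact permutation p = 0.40), and 185 ± 46.9 RPM at D4 (exact permutation p = 0.20). This split was chosen after the data were seen. The median aligned length of transcript reads moved with it, from 659 to 724 bases in the D0 libraries to 744 to 818 at D4 and 738 to 805 at D6, and its part in the result was not tested.

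**Figure D3:**
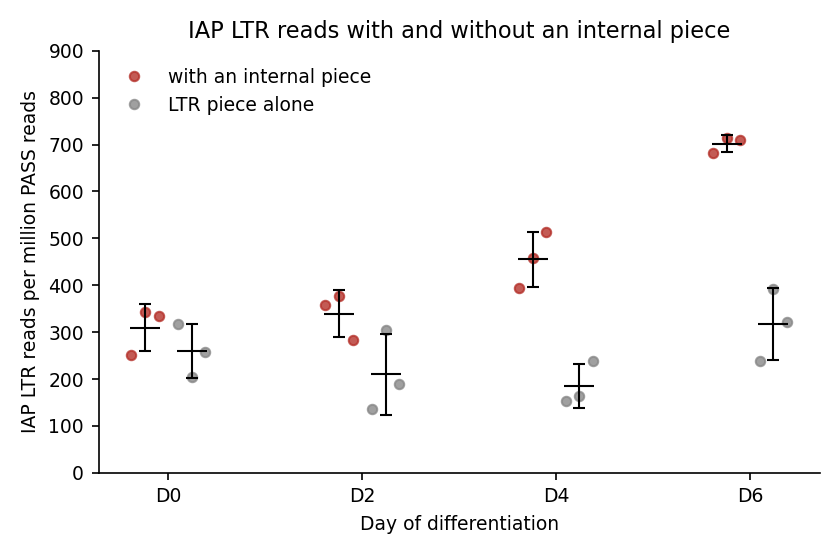
IAP LTR reads in RPM (y axis) by day (x axis), for reads with an IAP internal piece and for reads with the LTR piece alone. Points are libraries, wide bars means and error bars SD (n = 3 per day), and reads with an internal piece average 309 RPM at D0 and 702 RPM at D6.

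Most internal pieces ended at the last bases of the internal part. Over all tags there were 5364 internal alignments on 569 copies, with a median length of 1395 bases (quartiles 828 and 2048, longest 6435), and 66.8% of them ended within 5 bases of the internal part's last base. Copies with an internal part of 3000 to 3500 bases, shorter than a full IAP, took 70.2% of them, and copies of 6000 to 6600 bases took 19.2%. The aligner seldom put both pieces of a read in the same locus. Of 2181 pairs of LTR and internal pieces, 3.58% lay within 100 bases of each other, 6.46% in the same locus and 10.3% on the same chromosome, whereas 9 of the 12 pairs with a MAPQ of at least 10 on both pieces shared a locus.

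A pair of internal copies stood out by their number of alignments. IAPEz-int_dup6703 (chr17:6345213-6348490, 3278 bases), which overlaps the pseudogene Gm2792 and lies in an intron of the lincRNA Gm26848, had 1030 alignments, 19.2% of all internal ones. It was the better placed one, with a MAPQ of at least 10 in 73.5% of its alignments. Its level was 64.7, 165 and 127 APM at D0, 206, 249 and 183 at D4 and 253, 153 and 248 at D6, so that D6 overlapped with D0 and D4 did not (log2 differences 0.94 and 0.93, exact permutation p = 0.20 and 0.10). The LTRs of the same locus (chr17:6344863-6350030) had 41 PASS reads and a log2 fold change of -0.54 at D6 (limma-voom adjusted p = 0.559).

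IAPEz-int_dup159 (chr1:45735732-45738997, 3266 bases, intergenic) had 718 alignments, 13.4% of the internal ones. Its D0 libraries had 55.0, 66.3 and 69.6 APM, its D4 libraries 122, 126 and 122, and its D6 libraries 197, 236 and 201. Both later days lay wholly above D0 (log2 difference 0.96 at D4 and 1.73 at D6, exact permutation p = 0.10 for each, the smallest possible). A MAPQ of at least 10 was given to 29.2% of its alignments, and the LTR pieces of the same reads were spread over 70 LTR copies in 44 loci, with 1 read in its own locus. IAPEz-int_dup2380 (chr6:31799740-31803005, in an intron of the lincRNA Gm13849) had 265 alignments and went from a mean of 25.3 to 81.2 APM (log2 difference 1.69, exact permutation p = 0.10). Only 2 of these alignments (0.755%) had a MAPQ of at least 10.

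Single LTR copies were then compared. Reads were unevenly spread, with 283 of the 555 copies at 1 read, 58 at 10 or more and 28 at 30 or more. These 28 held 53.1% of the IAP reads and the 10 with the most reads held 30.2%, and all 28 were IAPLTR1_Mm copies. Copies in introns numbered 157 and held 48.5% of the reads, 367 intergenic copies held 44.8%, and 31 that overlapped an exon held 6.73%, where the strand of the gene was not considered.

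Of the 28 copies tested, 6 were higher and 0 lower at D6, 1 was higher at D4 and 0 were called at D2 (3 at an unadjusted p under 0.05, limma-voom). Among all 12526 copies and transcripts of the fit, 29.4% were called at D6 and 14.9% were higher, 20.2% were called at D4 and 10.3% were higher, and 7.10% were called at D2. The count of IAP copies called at D6 is thus near the background. The minimum of 30 reads is summed over all days, and 11 of the 28 copies reached it only with their D6 reads, which favours copies that are high at D6. Counts over the 28 are therefore a description. The other 17 had 30 reads without D6, of which 4 were called higher at D6 and 16 had a log2 fold change above 0, with a median of 0.69 against 0.01 over all rows. All 6 families had 30 reads without D6. Without D4, 5 of the 6 families and 24 of the 28 copies had 30 reads.

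**Figure D4:**
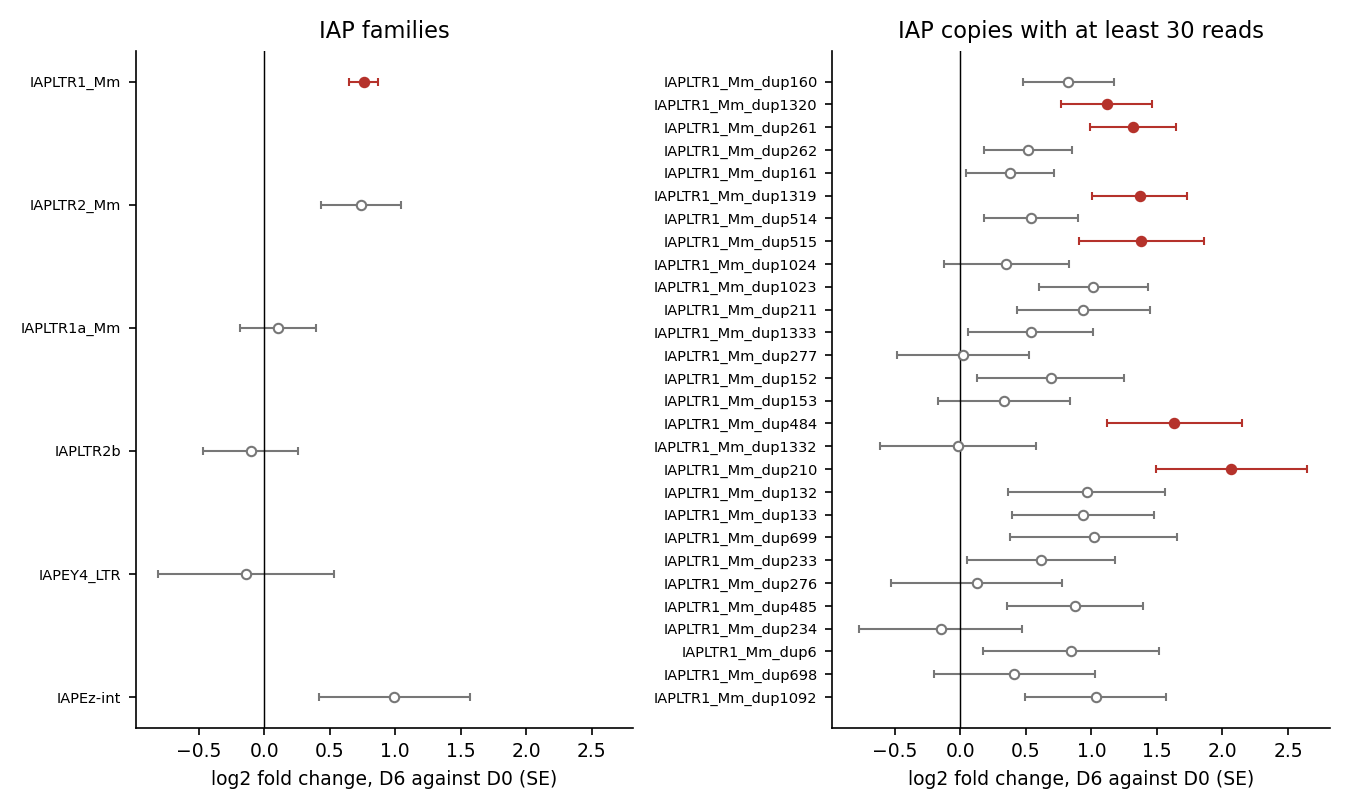
Log2 fold change of D6 against D0 from limma-voom (x axis, points with SE bars) for the 6 IAP families (left) and the 28 IAP copies (right) with at least 30 reads, ordered by reads. Filled points passed an adjusted p of 0.05, which were 1 family and 6 copies, all above 0.

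IAPLTR1_Mm_dup261 (chr3:60489873-60490207) lies in an intron of Mbnl1, which encodes a splicing regulator. It had 18.9, 15.4 and 16.3 RPM at D0 and 38.8, 48.1 and 52.0 RPM at D6, without overlap, and rose 2.49-fold (log2 fold change 1.32 ± 0.327, limma-voom adjusted p = 0.00172). The LTR at the other end of the locus, IAPLTR1_Mm_dup262 (chr3:60494750-60495084), had 115 reads and a log2 fold change of 0.51 (limma-voom adjusted p = 0.261).

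Both LTRs of a locus in Nrros, a gene for a regulator of reactive oxygen species and transforming growth factor beta, were called. IAPLTR1_Mm_dup1319 (chr16:32148077-32148444, overlapping an exon) had 29.3, 10.8 and 10.9 RPM at D0 and 38.8, 48.1 and 39.0 RPM at D6. Replicate 1 was the highest of the D0 libraries and still lay below the D6 range (log2 fold change 1.37 ± 0.361, limma-voom adjusted p = 0.00315). IAPLTR1_Mm_dup1320 (chr16:32152972-32153339, in an intron) had 12.6, 15.4 and 21.7 RPM at D0 and 48.5, 33.4 and 41.6 RPM at D6 (log2 fold change 1.12 ± 0.348, limma-voom adjusted p = 0.0124). With single-alignment reads only, neither was called, and without D0 replicate 1 the second was not (0.96, limma-voom adjusted p = 0.0502).

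The other called copies were IAPLTR1_Mm_dup210, IAPLTR1_Mm_dup484 and IAPLTR1_Mm_dup515. The first and second had 22 and 20 reads outside D6 and entered the test only through the 22 and 26 reads of the day on which they were high, so that their values are a description. IAPLTR1_Mm_dup210 (chr2:154354263-154354656) overlaps an exon of Cdk5rap1, the gene of a tRNA-modifying enzyme. It had 2.09, 4.62 and 3.62 RPM at D0, from 6 reads in all, and 16.2, 22.99 and 15.6 RPM at D6, 4.19-fold more (log2 fold change 2.07 ± 0.578, limma-voom adjusted p = 0.00523). IAPLTR1_Mm_dup484 (chr5:143004698-143005048), in an intron of the ubiquitin ligase gene Rnf216, was 3.10-fold higher (log2 fold change 1.63 ± 0.515, limma-voom adjusted p = 0.0135). IAPLTR1_Mm_dup515 (chr6:31804272-31804637), in an intron of Gm13849, had 6.28, 12.3 and 7.24 RPM at D0 and 16.2, 39.7 and 20.8 RPM at D6 (log2 fold change 1.38 ± 0.479, limma-voom adjusted p = 0.0254). The last of these and Rnf216's copy were not called by limma-trend (adjusted p = 0.123 and 0.0856). The call of IAPLTR1_Mm_dup515 was also lost without D0 replicate 1 or 3 or D6 replicate 2 (limma-voom adjusted p = 0.0734, 0.0782 and 0.168) and with a minimum of 1 read (limma-voom adjusted p = 0.0723), and that of IAPLTR1_Mm_dup484 without D0 replicate 2 (limma-voom adjusted p = 0.0621).

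The other copies among the 10 with the most reads were not called. IAPLTR1_Mm_dup160 (chr2:84505210-84505544, in an intron of the lincRNA Gm13710), with 134 reads the most read of all, had 16.8, 21.6 and 25.3 RPM at D0 and 48.5, 27.2 and 62.4 RPM at D6 (log2 fold change 0.82, limma-voom adjusted p = 0.0666). It passed with library totals alone (0.97, limma-voom adjusted p = 0.0307) and without D6 replicate 2 (1.33, limma-voom adjusted p = 0.00338). IAPLTR1_Mm_dup161 (chr2:84510087-84510421), the LTR at the other end of the same locus, had a log2 fold change of 0.38 (adjusted p = 0.418 in the same limma fit). IAPLTR1_Mm_dup514 (chr6:31799370-31799735, in Gm13849 and within 5000 bases of Gm43154) had 0.54 (limma adjusted p = 0.271).

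A pair of intergenic LTRs on chromosome 11 gave unequal values. IAPLTR1_Mm_dup1023 (chr11:51665046-51665382) had a log2 fold change of 1.02 (limma-voom adjusted p = 0.0601), which turned to -0.11 with single-alignment reads. IAPLTR1_Mm_dup1024 (chr11:51669882-51670218) had 0.35 (limma-voom adjusted p = 0.620), which turned to -0.23 without D0 replicate 1. Neither passed the threshold here, but IAPLTR1_Mm_dup1023 passed it with library totals alone (1.14, limma-voom adjusted p = 0.0353), with the replicate block (1.10, limma-voom adjusted p = 0.0406) and without D6 replicate 1 (1.20, limma-voom adjusted p = 0.0322). The 1 copy called at D4 was IAPLTR1_Mm_dup6 (chr1:23301117-23301467, intergenic, 34 reads), with 4.19, 1.54 and 5.43 RPM at D0 and 14.2, 8.35 and 17.0 RPM at D4 (log2 fold change 1.70 ± 0.611, limma-voom adjusted p = 0.0419). It reached 30 reads only through the 16 of D4, so that its call is a description, and the call was lost without any 1 of the D0 libraries, D4 replicate 1 or 3, or D6 replicate 3.

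Since the LTRs of 1 element are near-identical, copies were also chained into loci over gaps of at most 7000 bases, which was decided after the data were seen. The 555 copies fell into 394 loci, of which 20 could be tested. At D6, 8 were higher and 0 lower. Of the 20, 16 had 30 reads without D6, of which 7 were called higher and 16 had a log2 fold change above 0, with a median of 0.70. Of the 12518 rows in this fit, 29.5% were called at D6 and 15.0% were higher. The locus in Nrros rose 2.30-fold (chr16:32148077-32153339, 234 reads, limma-voom adjusted p = 1.57e-04), and that in Mbnl1 rose 1.92-fold (chr3:60489873-60495084, 236 reads, limma-voom adjusted p = 0.00421). The locus in Gm13710 rose 1.57-fold (chr2:84505210-84510421, 246 reads, adjusted p = 0.0324 in limma-voom) and that in Gm13849 rose 1.83-fold (chr6:31799370-31804637, 165 reads, limma-voom adjusted p = 0.0326). These loci were 5212 to 5268 bases long.

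At D4, 2 loci were higher and 0 lower, and at D2 0 were called, beside 20.3% of all rows called at D4 (10.4% higher) and 7.10% at D2 in the same limma fit. Those at D4 were the locus of IAPLTR1_Mm_dup6 (chr1:23301117-23306356, log2 fold change 1.73, limma-voom adjusted p = 0.0223) and 1 on chromosome 8 (chr8:72228229-72232950, log2 fold change 1.19, limma-voom adjusted p = 0.0426). Only the last had not been called as a single copy.

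The third comparison concerned poly(A) tails, the measurement for which the study was made. The median IAP tail was 111, 111 and 120 nt in the D0 libraries, 115, 103 and 117 nt at D2, 110, 112 and 112 nt at D4 and 116, 123 and 117 nt at D6. Each later day overlapped with D0, whereas all D6 libraries lay above those of D4, a difference that was not tested. The differences from D0 were -2.66 nt at D2, -3.05 nt at D4 and 4.51 nt at D6 (exact permutation p = 0.80, 0.60 and 0.30, each adjusted to 0.80).

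IAP tails were longer than those of the library they came from. The IAP median exceeded that of all other reads in 12 of 12 libraries, by 20.0 ± 5.72 nt (mean and SD), with p = 0.000488 by the two-sided exact sign-flip permutation test, the smallest it can give with 12 libraries (adjusted 0.00061 over 5 comparisons). Against nuclear transcript reads the difference was 14.3 nt and against LINE reads 25.6 nt, both longer in 12 of 12 libraries (exact permutation p = 0.000488 for each). Against the other LTR reads IAP tails were shorter, by 11.8 nt on average and in 11 of 12 libraries (exact permutation p = 0.000977). Over the IAP reads with a MAPQ of at least 10, 1 to 14 per library, the difference from all other reads of that MAPQ was 30.3 ± 23.04 nt (SD), longer in 12 of 12 libraries (exact permutation p = 0.000488).

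**Figure D5:**
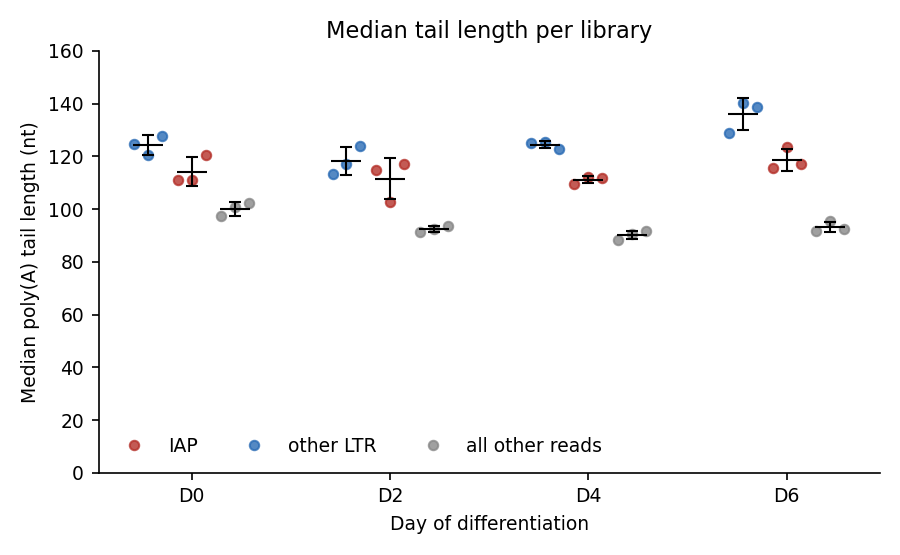
Median poly(A) tail length per library in nt (y axis) by day (x axis) for IAP reads, other LTR reads and all other reads. Points are libraries, wide bars means and error bars SD (n = 3 per day). IAP medians (103 to 123 nt) lie above those of all other reads (88.3 to 102 nt) and mostly below those of other LTR reads.

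The gap to the rest of the library was 13.9, 10.5 and 18.3 nt at D0 and 23.9, 28.2 and 24.6 nt at D6, without overlap (exact permutation p = 0.10, the smallest possible, a comparison added after the data were seen). IAP medians averaged 114 nt at D0 and 119 nt at D6, while those of all other reads averaged 100.0 and 93.2 nt. The gap thus moved with the other reads as well as with IAP reads.

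By the tail classes of the study, 1.15 ± 0.475% of IAP reads had tails under 30 nt at D0 and 0.729 ± 0.584% at D6 (SD, n = 3). At D0, 66.7 ± 4.67% of IAP tails were over 90 nt, and at D6 68.8 ± 4.13%, where other reads had 57.0 and 51.9%. Those of 30 to 90 nt were 32.1% and 30.4% of IAP reads at D0 and D6, and 40.7 and 44.97% of other reads. Neither class tested, under 30 nt and 30 to 90 nt, passed the threshold between days, with exact permutation p-values of 0.20 to 0.90.

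Tails were also set out by what a read covered. LTR reads with and without an internal piece had pooled medians of 114 and 115 nt. At D0 the pooled median was 111 nt in IAPLTR1_Mm, 112 nt in IAPLTR2_Mm and 131 nt in IAPLTR1a_Mm, and at D6 it was 120 nt, 110 nt and 121 nt. IAPEz-int had 89.5 nt over 8 reads at D0 and 168 nt over 15 reads at D6, so that its place among the families depended on the day. Over the 28 copies with at least 30 reads they ran from 83.8 nt in IAPLTR1_Mm_dup233 to 135 nt in IAPLTR1_Mm_dup210, with a median of 110 nt. These are descriptions, with no test.

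Genes linked to the control of IAPs were taken from a list of 53, most of which silence or restrict them and which also holds Tet1 and Tet2, whose enzymes start the removal of DNA methylation, of which 46 had enough reads. At D6, 4 were higher and 11 lower, at D4 1 and 9, and at D2 1 and 2 (limma-voom). The share called was 32.6% at D6, 21.7% at D4 and 6.52% at D2, none above the 37.3, 25.0 and 10.4% of all rows given above. Their median log2 fold change at D6 was -0.19.

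Tet1 was 1 of the 11 lower genes (log2 fold change -2.78, limma-voom adjusted p = 3.76e-04). Of the other genes that fell, those named here act in DNA methylation and chromatin. Dnmt3b, a de novo DNA methyltransferase, had 159, 109 and 147 RPM at D0 and 3.23, 4.18 and 0 RPM at D6 (log2 fold change -5.55 ± 0.618, limma-voom adjusted p = 2.46e-10, and -4.91 without D6 replicate 3). It was also lower at D2 (log2 fold change -2.96, limma-voom adjusted p = 1.12e-06). Hells, a chromatin remodeller needed for DNA methylation of repeats, fell by 1.71 on the log2 scale (limma-voom adjusted p = 2.16e-07), and Uhrf1, which brings Dnmt1 to newly made DNA, fell by 0.92 (limma-voom adjusted p = 0.00372). Trim28, the corepressor that KRAB zinc finger proteins bind, had 415, 368 and 422 RPM at D0 and 213, 280 and 262 RPM at D6, without overlap (log2 fold change -0.82 ± 0.129, limma-voom adjusted p = 1.04e-06). L3mbtl2 and the chromatin assembly factor subunit Chaf1b fell by 2.40 and 1.05 on the log2 scale (limma-voom adjusted p = 8.46e-06 and 2.33e-04).

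Other control genes were higher, were called on other days or missed the threshold. Zfp57, a KRAB zinc finger protein gene best known from imprinted loci, had 14.7, 15.4 and 1.81 RPM at D0 and 67.9, 50.2 and 44.2 RPM at D6 (log2 fold change 2.41 ± 0.466, limma-voom adjusted p = 3.85e-05). Without D0 replicate 3, its lowest library, the log2 fold change was 1.57 (limma-voom adjusted p = 0.00181). Cbx1 and Cbx3, which encode heterochromatin proteins, rose by 0.65 and 0.39 (limma-voom adjusted p = 0.00146 and 0.0371), but Cbx3 had -0.57 with a MAPQ of at least 1. Its call was also lost without D0 replicate 2 or 3 or D6 replicate 2 or 3 (limma-voom adjusted p = 0.0715 to 0.16), with a minimum of 1 read (limma-voom adjusted p = 0.0614) and with limma-trend (adjusted p = 0.115). Trim24, a relative of Trim28, rose by 1.07 (limma-voom adjusted p = 0.00310), and had 1.28 at a MAPQ of at least 1 or 10, where it was not called (limma-voom adjusted p = 0.224 and 0.222). Setdb1, the histone methyltransferase that Trim28 recruits, had 20.9, 43.1 and 21.7 RPM at D0 and 19.4, 62.7 and 54.6 RPM at D6 (log2 fold change 0.50, limma-voom adjusted p = 0.265), and passed the threshold without D6 replicate 1 (0.87, limma-voom adjusted p = 0.0331). Dnmt1, the maintenance DNA methyltransferase, averaged 87.2 and 88.8 RPM (log2 fold change -0.08, limma-voom adjusted p = 0.817), with the sign turned under library totals alone. Dnmt3a, the other de novo DNA methyltransferase gene, was lower on all 3 days (log2 fold changes -1.44, -1.65 and -0.79 at D2, D4 and D6, limma-voom adjusted p = 4.75e-04, 9.24e-07 and 0.00153). Of the genes not called at D6, Samhd1 was higher at D2 (log2 fold change 1.00, limma-voom adjusted p = 0.0384) and Suv39h1 was higher at D4 (0.97, limma-voom adjusted p = 0.00895). Atf7ip, a partner of Setdb1, and Morc3 were lower at D4 (-1.24 and -1.74, limma-voom adjusted p = 0.00432 and 0.0353). The Morc3 libraries had 31.98, 0 and 19.2 RPM at D4 and overlapped with the 18.9, 23.1 and 28.97 RPM of D0.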

How the data were processed

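Base calls are from Guppy and alignments from minimap2 2.20, made by the authors against mm10 transcripts, repeat contigs and spike-ins. Deeplexicon gave each read its barcode and Nanopolish its tail length. The table of reads holds 23 columns and 1 line for each alignment. Its mapping quality is a score that the authors deposited from the aligner, and its barcode confidence is a fraction deposited for each read. Tail lengths are in nucleotides and positions in bases, neither normalized by the authors. A second table holds the authors' log2 fold changes and adjusted p-values and was not used. Of 6306434 lines, 69 were malformed and 289260 (4.59%) had no library, and 77.7% of the rest were PASS.

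Reads were tallied here per contig and per gene or repeat family over the whole table. Each read is 1 RNA molecule, so that reads were not divided by length. With every quality tag, a read aligned in several pieces was counted once for each piece. Rows with at least 30 reads were fitted over all 12 libraries with limma-voom (limma 3.58.1, R 4.3.3), scaled by the trimmed mean of M-values (30% and 5% trimmed) with an offset of 0.5 reads, and p-values were adjusted by Benjamini-Hochberg over all rows and called at 0.05. For library values, days were compared with a two-sided exact permutation test, adjusted over the 3 days. The limma-voom fits were tried on simulated counts with known changes at D6, and the exact tests on values with known answers. The other steps were not simulated. No libraries of a day were duplicates (chi-square per degree of freedom 1.14 to 1.97).

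Named were all IAP families with at least 30 reads, the 10 copies with the most reads, the 5 higher and 5 lower copies called at D6 with the smallest p, and of the control genes the 5 called in each direction with the smallest p plus Trim28, Setdb1, Dnmt1, Dnmt3b and Uhrf1. IAPLTR1_Mm_dup6, the internal copies, the loci and Tet1, Dnmt3a, Samhd1, Suv39h1, Atf7ip and Morc3 were named after their values were seen. Genes were annotated from GENCODE vM21. The members and lists were chosen with earlier results of these data known. The alternatives were other read filters, scalings and read minimums, limma-trend, a replicate block and leaving out each library. Python 3.11.15 with pandas 2.3.3, numpy 2.4.6, scipy 1.17.1 and matplotlib 3.10.9 made all tables and plots.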

Additional observations from a re-analysis of the deposited data

Results flagged for a closer look

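IAP reads also appeared among lines without an assigned library. Of 165552 PASS alignments without a library, 119 were on IAP copies, 719 RPM, on 74 copies and with a median tail of 103 nt. They entered no comparison.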

How the results depend on the processing

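In exact permutation tests over libraries and limma fits, the mean IAP RPM at D6 stayed above D0 in all alternatives run, but with single-alignment reads (log2 difference 0.33) and for LTR reads without an internal piece (0.29) the D6 and D0 libraries overlapped (exact permutation p = 0.40 for each). Single-alignment reads leave out all LTR reads with an internal piece, so that these alternatives are not separate checks. At D2 the log2 difference turned to 0.15 with a MAPQ of at least 1, 0.14 with every quality tag, 0.15 over distinct reads, 0.27 on internal copies and 0.14 for LTR reads with an internal piece, and at D4 to -0.62 with single-alignment reads and -0.50 for LTR reads without an internal piece. The ratio to other LTR reads turned at D2 to -0.54 (MAPQ of at least 10), -0.056 (single alignment) and -0.17 (without ERVB7_1-LTR_MM and RLTRETN_Mm) and at D4 to -0.032 (single alignment). The median tail difference turned to 0.050 nt (single alignment) and 4.86 nt (minus all other reads) at D2, to 1.90 nt (MAPQ of at least 10) and 6.77 nt (minus all other reads) at D4 and to -14.8 nt at D6 (MAPQ of at least 10). The change in tails under 30 nt was 0 percentage points at each day with a MAPQ of at least 10, 0.127 (single alignment) and 0.105 (limits of 25 and 95 nt) at D2 and -0.0789 (limits of 25 and 95 nt) at D4. That in tails of 30 to 90 nt was -5.20 and -2.30 at D2 (MAPQ of at least 10, single alignment), -6.13 and -0.275 at D4 (MAPQ of at least 10, barcode confidence of at least 0.75) and 5.12 at D6 (MAPQ of at least 10). Against other LTR reads the tail difference was -11.8 nt.

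Counts moved more. Families called were 1 at D2 and 1 at D4 with a MAPQ of at least 1, 1 (lower) at D4 with single alignments, 3 at D4 and 4 at D6 with every tag, 0 at D6 with single alignments, and 2 at D6 with library totals alone, upper quartile scaling or without mitochondrial transcripts, pseudogenes and spike-ins. Copies called with a minimum of 1 read were 276 of 555 at D2 (275 higher), 3 at D4 and 12 at D6, where 36.2, 5.63 and 9.11% of all 48149 rows were called (33.8% higher at D2). At D4 they were 0 with a MAPQ of at least 1, single alignments, 10 reads or limma-trend and 2 as loci, and at D6 0 with single alignments, where only 4 copies could be tested. No IAP family or copy kept 30 reads at a MAPQ of at least 10, so that this fit gave no value. Control genes called fell from 15 to 7 and 6 at a MAPQ of at least 1 and 10. At D6 the sign turned for IAPEY4_LTR (0.019), IAPLTR2b (0.077) and Dnmt1 (0.10) with library totals alone, IAPLTR1a_Mm (-0.65) and IAPLTR1_Mm_dup1023 (-0.11) with single alignments and Cbx3 (-0.57) with a MAPQ of at least 1. The causes were not tested.

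Leaving out 1 library at a time gave -0.21 to 0.053, 0.06 to 0.27 and 0.79 to 0.92 for IAP RPM at D2, D4 and D6 (log2), and 0.08 to 0.38, 0.61 to 0.73 and 0.95 to 1.00 for the ratio to other LTR reads. Median tail differences were -5.48 to 1.76, -4.64 to 0.060 and 2.14 to 7.62 nt, those of tails under 30 nt -0.719 to -0.0910, 0.0263 to 0.606 and -0.750 to -0.184, and those of 30 to 90 nt -1.16 to 3.85, -1.47 to 2.79 and -3.76 to 0.506. The gap to all other reads was 19.2 to 20.9 nt. Families called were 0 to 0, 0 to 1 (1 without D4 replicate 1) and 1 to 3 (3 without D6 replicate 2, 2 without any 1 of the D2 libraries or D4 replicate 2 or 3), copies 0 to 0, 0 to 1 and 4 to 7, and control genes 13 to 16. The sign also turned within -0.60 to 0.25 for IAPEY4_LTR, -0.27 to 0.13 for IAPLTR2b, -0.27 to 0.043 for Dnmt1 and -0.23 to 0.72 for IAPLTR1_Mm_dup1024. Same-numbered replicates of different days had correlated deviations of 0.0042 to 0.142, above 0 in 18 of 18 pairs, and differently numbered ones -0.145 to 0.0871, above 0 in 8 of 36, so that not every pair passed the 0.1 set for pairing. With the replicate number as a replicate block, 1 family and 7 copies were called at D6, 1 copy at D4 and 0 at D2, IAPLTR1_Mm_dup1023 became a call (1.10), and 17 control genes were called. The blocked log2 difference of IAP RPM at D6 was 0.85 (exact sign-flip permutation p = 0.25, the smallest 3 pairs allow). Another 156 results under these alternatives and 163 without 1 library kept their direction or, for counts, stayed within 1.5 times the value reported. The shallowest library had 67 IAP reads, which limits what can be read for single copies.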
